A study of Mus musculus with 14 samples.

Results

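The platelet-derived growth factor (PDGF) family of the mouse was followed through kidney obstruction at the transcript level. It comprised 6 genes of the 47729 in the count files, the ligand genes Pdgfa, Pdgfb, Pdgfc and Pdgfd and the receptor genes Pdgfra and Pdgfrb. Their rows were found by gene symbol, through the Ensembl identifiers of the files. All 6 passed the filter on low counts. Messenger RNA of whole kidney was sequenced in 14 libraries, of which 3 were wild type and untreated (normal), 4 were wild type after 7 days of unilateral ureteral obstruction (UUO, in which the ureter of 1 kidney is tied off, a model of kidney fibrosis), 3 were labelled SMOC2 transgenic and untreated, and 4 were labelled SMOC2 transgenic after the same 7 days of UUO. SMOC2 is a matricellular protein that cells secrete. The promoter that drives the transgene, the strain and the age are not given in the labels of these groups. A protocol text attached to the same libraries speaks of folic acid in male Balb/c mice, which differs from the title, genotype and treatment labels used here. Nothing in the labels ties each library to a separate animal, and the p-values therefore rest on the spread among libraries, part of which may be technical.

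Total counts ran from 19483994 to 30033405 per library. Smoc2 itself was at a mean of 25.2 CPM (the usual library-size unit of counts, here on scaled library sizes) in wild-type normal kidney and 21.8 CPM in normal kidney labelled transgenic, and at 147 CPM and 96.1 CPM after UUO. The libraries labelled transgenic thus showed no excess of Smoc2 counts, and the difference between labels after UUO was -0.61 on the log2 scale (edgeR adjusted p = 0.389). Every direction between genotypes below is one between labels, and "SMOC2 label" stands for the libraries labelled transgenic. The labelled tissue carried kidney markers, with the 12 proximal tubule genes summing to 39000 to 51300 CPM in normal libraries and none of them at 0. After UUO they summed to 2330 to 6050 CPM in wild type and 3450 to 4750 CPM with the SMOC2 label.

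PDGFs are secreted dimers that signal through a pair of receptor tyrosine kinases, PDGFRα and PDGFRβ. The A and B chains are processed inside the cell by furin-like proteases, whereas the C and D chains leave it in latent form, with a CUB domain that extracellular proteases of the plasminogen activator type remove. PDGFRα binds the A, B and C chains and PDGFRβ binds the B and D chains. In kidney the receptors are known from mesangial cells, pericytes and interstitial fibroblasts, and ligands from epithelium, endothelium, mesangial cells and macrophages.

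After UUO, transcripts of 3 of the 4 ligands and of both receptors were higher in either genotype label, and Pdgfc did not pass the test. In wild-type kidney 5 of 6 members rose and 0 fell, where 31.3% of all 17926 genes tested rose and 29.8% fell (edgeR quasi-likelihood test, adjusted p under 0.05). In kidney with the SMOC2 label 5 of 6 rose and 0 fell, where 32.5% of all genes rose and 30.4% fell. Pdgfb and Pdgfrb had the largest differences, 4.49-fold and 3.65-fold in wild type and 4.17-fold and 5.10-fold with the SMOC2 label. The values of single libraries are set out below by the roles of the genes.

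**Figure D1:**
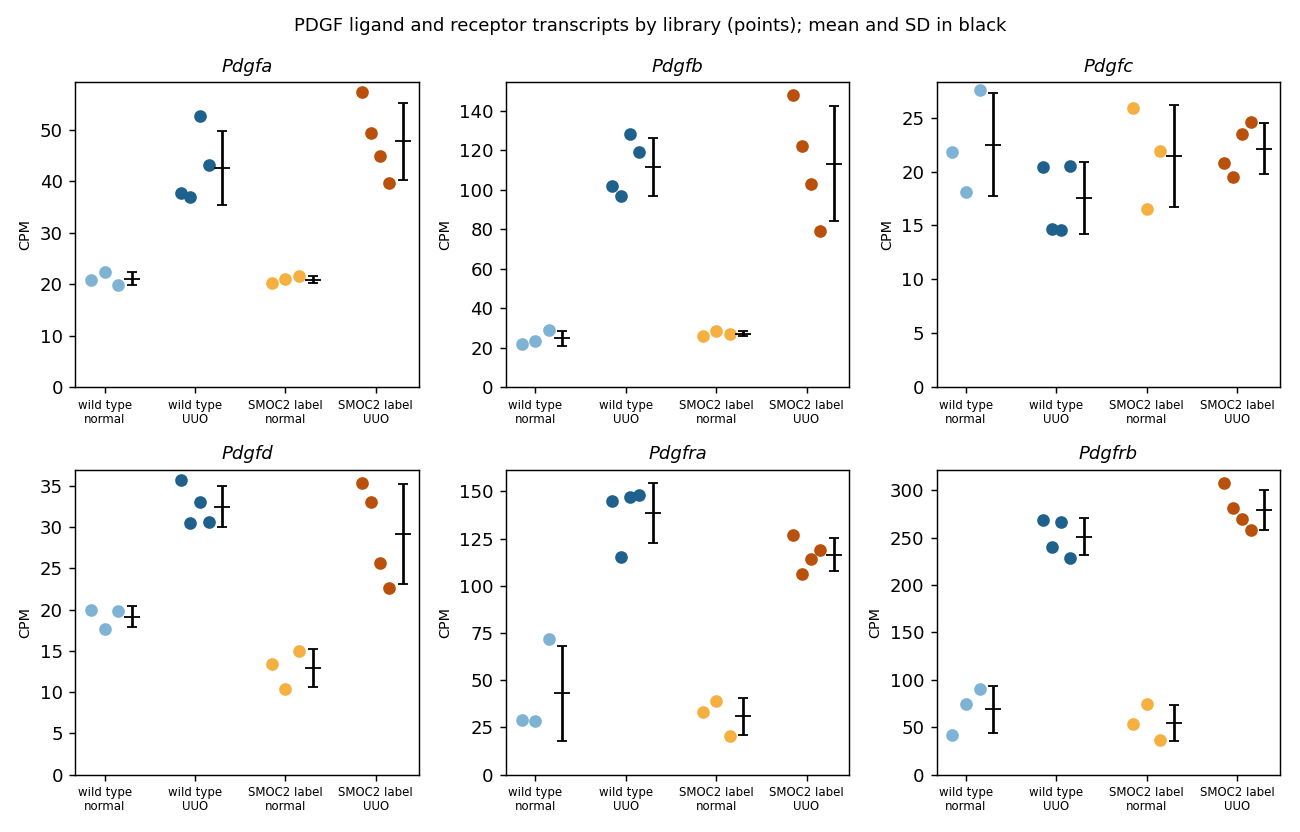
CPM of each PDGF ligand and receptor gene (y axis, linear from 0) in the 14 libraries (points), by group on the x axis, with the mean and SD in black. For Pdgfa, Pdgfb, Pdgfd, Pdgfra and Pdgfrb every UUO library lies above every normal library of its label, while the Pdgfc points overlap between 14.6 and 27.6 CPM. The share of all genes that separate in this way was not counted.

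Promoter sequence was matched by symbol for 4 of the 6 members, from RefSeq on build GRCm38.p6, as windows of 300 bases that hold 250 bases before and 50 bases after the annotated start. The windows of a ligand that rose (Pdgfa), of the ligand that did not pass (Pdgfc) and of a receptor that rose (Pdgfra) are shown 5′ to 3′ on the strand of the gene, so that the genes with different responses can be set side by side. Capitals mark matches to the motifs named after them.
Pdgfa, chr5:138994895-138995194, minus strand: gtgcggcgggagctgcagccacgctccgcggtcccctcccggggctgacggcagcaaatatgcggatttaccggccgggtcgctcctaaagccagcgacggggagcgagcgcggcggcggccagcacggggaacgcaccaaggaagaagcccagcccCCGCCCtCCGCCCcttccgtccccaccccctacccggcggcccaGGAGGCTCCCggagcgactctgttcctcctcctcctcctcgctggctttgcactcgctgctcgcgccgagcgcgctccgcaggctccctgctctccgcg
Pdgfc, chr3:81036166-81036465, plus strand: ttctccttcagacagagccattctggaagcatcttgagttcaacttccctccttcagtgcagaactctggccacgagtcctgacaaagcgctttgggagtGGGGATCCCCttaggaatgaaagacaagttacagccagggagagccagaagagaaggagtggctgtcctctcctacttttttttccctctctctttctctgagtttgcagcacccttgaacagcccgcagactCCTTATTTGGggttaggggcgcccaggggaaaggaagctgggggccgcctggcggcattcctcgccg
Pdgfra, chr5:75152001-75152300, plus strand: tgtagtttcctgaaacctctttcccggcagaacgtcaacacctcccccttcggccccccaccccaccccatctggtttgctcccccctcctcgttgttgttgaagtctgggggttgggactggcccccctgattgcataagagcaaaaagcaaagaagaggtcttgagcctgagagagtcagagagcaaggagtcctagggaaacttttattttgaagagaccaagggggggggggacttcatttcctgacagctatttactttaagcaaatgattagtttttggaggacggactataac
In all, 8 motifs were searched on both strands, each by its letters. They were the GC box GGGCGG (in 35.7% of all 32851 promoters of the table), the TATA box TATAAA (13.6%), CCAAT (37.4%), the AP-1 site TGANTCA (7.81%), the EGR site GCGNGGGCG (5.55%), the E box CACGTG (7.15%), the CArG box (1.63%) and the NF-kB site (8.46%). The CArG box was searched as CCWWWWWWGG and the NF-kB site as GGGRNNYYCC. Here N stood for any base, W for A or T, R for A or G and Y for C or T. The Pdgfa window above held the GC box 93 and 86 bases before the start and the NF-kB site 49 bases before it. Both motifs were read on the strand opposite to the one printed (capitals CCGCCC and GGAGGCTCCC). The Pdgfc window held the CArG box, the motif bound by serum response factor, 17 bases before the start and the NF-kB site 150 bases before it. In the Pdgfra window none of the 8 motifs matched. A further Pdgfa start (chr5:138994232-138994531, minus strand) held the GC box 60 bases before it, and the Pdgfd window (chr9:6168236-6168535, plus strand) held TATAAA 160 bases before the start. The Pdgfa windows had 67.0% and 73.3% G and C with 24 and 37 CpG dinucleotides, against 55.0% and 8 in Pdgfc, 56.7% and 8 in Pdgfd, 51.0% and 5 in Pdgfra and a median of 52.7% over all promoters. These matches describe letters in the windows, and binding was not measured.

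Pdgfa (ENSMUSG00000025856, minus strand of chromosome 5, 138976014 to 138997370 on mm10) encodes the A chain, a ligand of PDGFRα. It was at 20.8, 22.4 and 19.9 CPM in the wild-type normal libraries and at 37.7, 36.9, 52.6 and 43.1 CPM after UUO. With the SMOC2 label it was at 20.2, 21.0 and 21.5 CPM in normal kidney and at 57.3, 49.3, 44.8 and 39.7 CPM after UUO. The 6 normal libraries lay close together, and every UUO library was above all of them. The rise was 2.03-fold in wild type (log2 1.02, SE 0.14, edgeR adjusted p = 1.84e-05) and 2.29-fold with the SMOC2 label (log2 1.19, SE 0.14, edgeR adjusted p = 4.17e-06). An antisense transcript, 6330403L08Rik, overlaps 813 bases of Pdgfa exons on the other strand and was at means of 4.67 CPM before and 6.78 CPM after UUO in wild type (log2 0.53, edgeR adjusted p = 0.0214). Because the strand setting of the counting is not given in the sources used here, Pdgfa counts may hold reads of that transcript.

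Pdgfb (ENSMUSG00000000489, minus strand of chromosome 15, 79995874 to 80014977) encodes the B chain, which binds both receptors and recruits pericytes to vessels. It was at 22.1, 23.2 and 29.1 CPM in wild-type normal kidney and at 102, 97.0, 128 and 119 CPM after UUO. The SMOC2 label went with 26.0, 28.4 and 26.9 CPM in normal and 148, 122, 103 and 79.3 CPM in UUO kidney. The lowest UUO library, SMOC2-label library 4, was still above the highest normal library of either label. Among the ligands Pdgfb had the largest rise in either label, 4.49-fold in wild type (log2 2.17, SE 0.18, edgeR adjusted p = 2.84e-07) and 4.17-fold with the SMOC2 label (log2 2.06, SE 0.18, edgeR adjusted p = 3.80e-07). The spread after UUO was wider with the SMOC2 label, 113 ± 29.0 CPM (SD, n = 4), than in wild type, 112 ± 14.4 CPM (SD, n = 4). That difference in spread was not tested.

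Pdgfc (ENSMUSG00000028019, plus strand of chromosome 3, 81036416 to 81214040) encodes the C chain, a latent ligand of PDGFRα. It was at 21.8, 18.1 and 27.6 CPM in wild-type normal kidney and at 20.4, 14.7, 14.6 and 20.5 CPM after UUO. In the libraries with the SMOC2 label it was at 25.9, 16.5 and 21.9 CPM in normal kidney and at 20.8, 19.5, 23.5 and 24.6 CPM after UUO. Normal and UUO libraries overlapped in either label. The log2 difference was -0.36 in wild type (95% interval -0.75 to 0.03, edgeR adjusted p = 0.0985) and 0.04 with the SMOC2 label (95% interval -0.35 to 0.43, edgeR adjusted p = 0.856). The upper ends of these intervals lie below the log2 change of each of the other 5 members. Without wild-type normal library 2, the lowest of its group, the wild-type difference was -0.50 (edgeR adjusted p = 0.0409), so that the call in wild type was not stable to the choices made.

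Pdgfd (ENSMUSG00000032006, plus strand of chromosome 9, 6168584 to 6378850) encodes the D chain, a latent ligand of PDGFRβ. It was at 20, 17.7 and 19.8 CPM in wild-type normal kidney and at 35.7, 30.5, 33.1 and 30.6 CPM after UUO. With the SMOC2 label it was at 13.4, 10.4 and 15 CPM in normal kidney and at 35.4, 33.0, 25.6 and 22.6 CPM after UUO. Every UUO library was above every normal library of its label, and the 3 normal libraries with the SMOC2 label were below the 3 wild-type ones. The rise was 1.69-fold in wild type (log2 0.76, SE 0.15, edgeR adjusted p = 0.000673) and 2.25-fold with the SMOC2 label (log2 1.17, SE 0.16, edgeR adjusted p = 1.86e-05).

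Pdgfra (ENSMUSG00000029231, plus strand of chromosome 5, 75152292 to 75198215) encodes PDGFRα, carried by interstitial fibroblasts. It was at 28.7, 28.3 and 72.0 CPM in the wild-type normal libraries and at 145, 115, 147 and 148 CPM after UUO. The libraries with the SMOC2 label had it at 33.2, 39.1 and 20.2 CPM in normal kidney and at 127, 106, 114 and 119 CPM after UUO. Wild-type normal library 3 stood apart at more than double the other normal libraries of its group, yet below every UUO library. The rise was 3.21-fold in wild type (log2 1.68, SE 0.30, edgeR adjusted p = 0.000203) and 3.78-fold with the SMOC2 label (log2 1.92, SE 0.30, edgeR adjusted p = 7.08e-05). Without wild-type normal library 3 the wild-type log2 change was 2.28 (edgeR adjusted p = 1.72e-06). The 6 erythroid genes summed to 279 CPM in that library and to 15 to 139 CPM in the others, and the part of this in its Pdgfra level was not tested.

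Pdgfrb (ENSMUSG00000024620, plus strand of chromosome 18, 61045150 to 61085061) encodes PDGFRβ, a marker of pericytes and mesangial cells. It was at 42.0, 74.4 and 90.2 CPM in wild-type normal kidney and at 269, 240, 266 and 229 CPM after UUO. With the SMOC2 label it was at 53.2, 74.6 and 36.4 CPM in normal kidney and at 308, 281, 270 and 258 CPM after UUO. Normal libraries of either label spread more than 2-fold, and every UUO library was above all 6 of them. The rise was 3.65-fold in wild type (log2 1.87, SE 0.25, edgeR adjusted p = 1.51e-05) and 5.10-fold with the SMOC2 label (log2 2.35, SE 0.25, edgeR adjusted p = 1.97e-06). As these are bulk libraries, fewer cells of a type and less RNA per cell cannot be told apart, and the same holds for more of either.

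**Figure D2:**
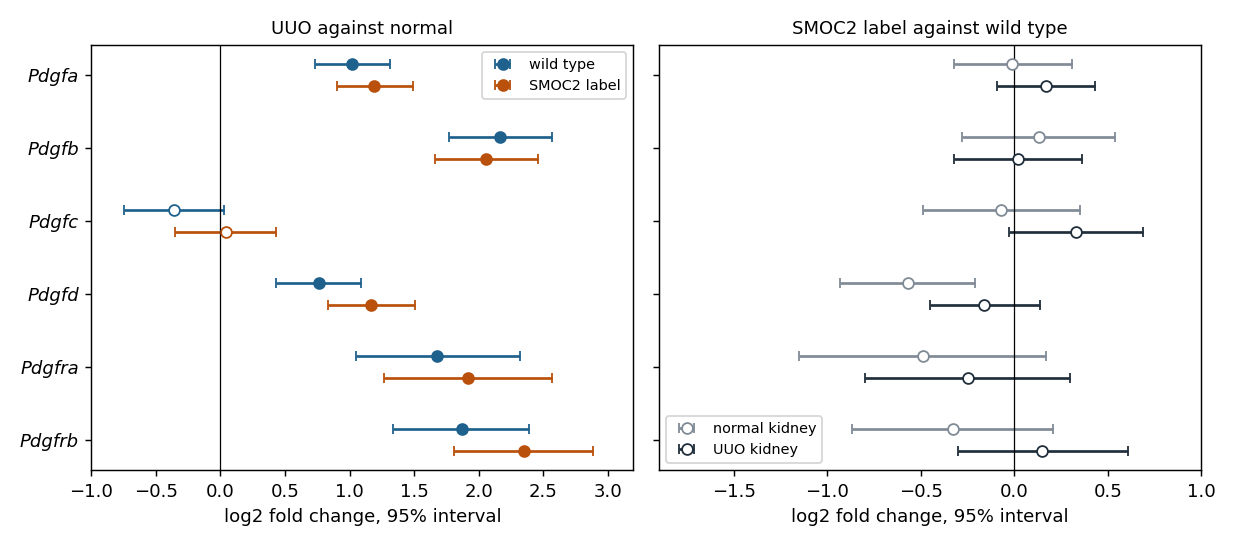
Log2 fold changes (x axis) of the 6 genes (y axis) with 95% intervals, for UUO against normal in each label (left) and for the SMOC2 label against wild type in each state (right), where filled points have an edgeR adjusted p under 0.05. Every point except those of Pdgfc is filled on the left, from 0.76 to 2.35, and every point on the right is open.

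The genotype labels were compared within each state to ask whether the transgenic label went with another PDGF level. Of the 6 members, 0 passed in normal kidney, where 0.0279% of all genes did. An unadjusted p under 0.05 by edgeR was found for 1 of 6, beside 2299 of the 17926 genes tested. After UUO 0 of 6 passed, where 0.831% of all genes did. There 0 of 6 had an unadjusted p under 0.05 by edgeR, beside 2716 of all genes. With DESeq2 and with limma-voom the counts of members that passed were 0 in either state. The member with the unadjusted p under 0.05 was Pdgfd in normal kidney, at 12.9 ± 2.35 CPM (SD, n = 3) with the SMOC2 label and 19.2 ± 1.30 CPM (SD, n = 3) in wild type. Its log2 difference was -0.57 (95% interval -0.93 to -0.21, edgeR adjusted p = 0.264), without overlap of the libraries but short of the threshold over all genes. The share of all genes without such overlap was not counted. After UUO the Pdgfd libraries of the labels overlapped, at 29.1 ± 6 CPM and 32.5 ± 2.46 CPM (SD, n = 4 each), with a log2 difference of -0.16 (95% interval -0.45 to 0.14). Pdgfc after UUO was at 22.1 ± 2.36 CPM with the SMOC2 label and 17.5 ± 3.32 CPM in wild type (log2 0.33, 95% interval -0.03 to 0.69, edgeR adjusted p = 0.374).

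The difference between the labels in the response to UUO was tested as an interaction. It passed for 0 of 6 members, and none had an unadjusted p under 0.05. Over all genes edgeR called 0 (0% of those tested), with 1154 at an unadjusted p under 0.05, limma-voom called 0 and DESeq2 called 25. The interaction was 0.48 for Pdgfrb (95% interval -0.22 to 1.19, edgeR adjusted p = 0.840), 0.41 for Pdgfd (-0.05 to 0.88, edgeR adjusted p = 0.804), 0.40 for Pdgfc (-0.15 to 0.96, edgeR adjusted p = 0.819) and 0.24 for Pdgfra (-0.63 to 1.10, edgeR adjusted p = 0.933). For Pdgfa it was 0.17 (-0.23 to 0.58, edgeR adjusted p = 0.892) and for Pdgfb -0.11 (-0.64 to 0.42, edgeR adjusted p = 0.951). Intervals of this width include differences of over 1.5-fold in every member except Pdgfa. A modest difference between labels was therefore not detectable with these libraries.

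To compare levels between genes, CPM were divided by the length of the merged exons of each gene in kilobases. In wild-type normal kidney the length-scaled level was highest for Pdgfrb at 12.6 CPM per kilobase, then Pdgfa at 6.73, Pdgfd at 6.07, Pdgfb at 5.96, Pdgfc at 4.42 and Pdgfra at 4.29. From Pdgfd down, each gene overlapped the next between libraries, so neighbours among the lower 4 genes could not be ordered. Pdgfa (6.37 to 7.17) lay above Pdgfd in every library but overlapped Pdgfb (5.31 to 6.99) and Pdgfra (2.83 to 7.18). Pdgfd (5.6 to 6.35) did lie above Pdgfc (3.55 to 5.42) in every library. After UUO in wild type Pdgfrb stood at 45.9 CPM per kilobase, Pdgfb at 26.8, Pdgfra at 13.8, Pdgfa at 13.6, Pdgfd at 10.3 and Pdgfc at 3.45. Here only Pdgfra and Pdgfa overlapped. Pdgfb lay above Pdgfra, Pdgfa, Pdgfd and Pdgfc in every library, and Pdgfc below the other 5 genes.

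The order after UUO was alike with the SMOC2 label, with length-scaled levels of 51.0 for Pdgfrb, 27.2 for Pdgfb, 15.3 for Pdgfa, 11.6 for Pdgfra, 9.24 for Pdgfd and 4.34 for Pdgfc, where Pdgfra and Pdgfd overlapped. In normal kidney with that label Pdgfrb (9.99), Pdgfa (6.69) and Pdgfb (6.52) overlapped in turn, and so did Pdgfc (4.22), Pdgfd (4.10) and Pdgfra (3.07). The share of Pdgfrb in the sum of the 6 length-scaled means went from 31.4% to 40.3% in wild type, that of Pdgfb from 14.9% to 23.5% and that of Pdgfc from 11% to 3.03%. The 4 ligands together went from 23.2 ± 1.66 to 54.2 ± 5.69 CPM per kilobase and the 2 receptors from 16.9 ± 6.57 to 59.7 ± 4.31 in wild type (SD, n = 3 and 4). After UUO these sums overlapped between wild-type libraries, at 47.7 to 61 for the ligands and 55.4 to 63.6 for the receptors. With the length of the longest annotated transcript in place of merged exons, 14 of the 24 places in the orders of single genes were the same. In UUO kidney Pdgfrb, Pdgfb and Pdgfc then kept the highest, second and lowest place (46.3, 37.9 and 4.98 CPM per kilobase in wild type and 51.5, 38.4 and 6.27 with the SMOC2 label). Pdgfa, Pdgfd and Pdgfra were then at 20.7, 10.4 and 20.3 in wild-type UUO kidney. By that length the ligands together lay above the receptors there, so the order of the 2 sums depended on the length used.

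**Figure D3:**
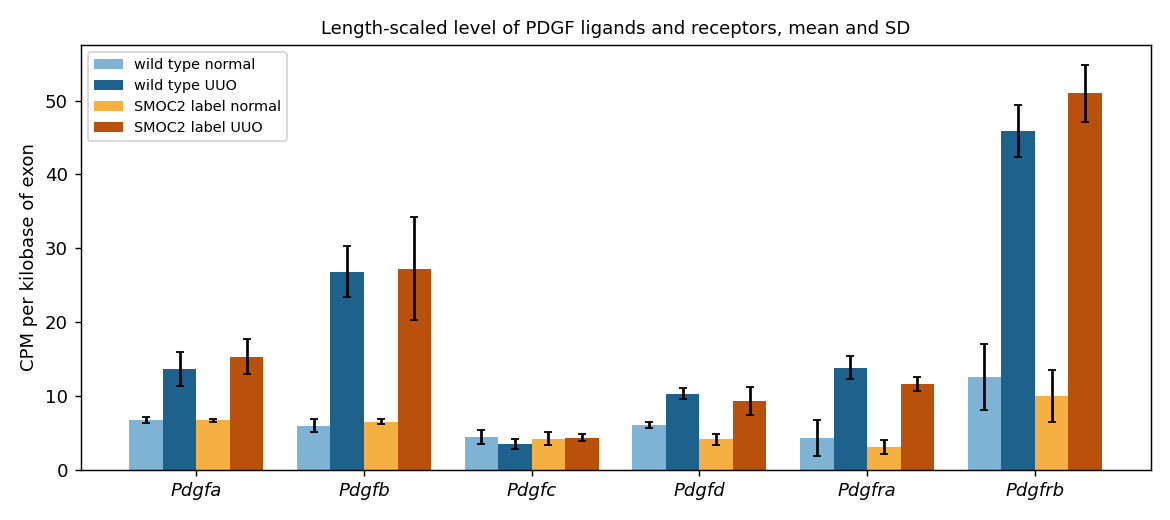
Length-scaled level (CPM per kilobase of merged exons, y axis from 0) of each gene in the 4 groups, as means with SD over 3 or 4 libraries. The Pdgfrb and Pdgfb bars are the highest after UUO in either label, at 45.9 and 26.8 in wild type, and the Pdgfc bars stay between 3.45 and 4.42.

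Whether the members changed by unequal amounts was tested on log2 ratios of the counts of 2 genes in the same library, which do not depend on how libraries are scaled. Of the 15 pairs, 11 had ratios that differed between UUO and normal libraries (exact permutation test within labels, two-sided, Benjamini-Hochberg over 15 pairs). The ratio of Pdgfb to Pdgfc had a median of 0.19 in normal and 2.59 in UUO libraries on the log2 scale, without overlap (mean difference 2.25, adjusted exact p = 0.00136). The ratio of Pdgfc to Pdgfrb differed by -2.32 and that of Pdgfc to Pdgfra by -2.05 (adjusted exact p = 0.00136 each). The smallest unadjusted p that the 1225 arrangements allow is 0.000816, which 9 pairs reached. All 5 ratios that hold Pdgfc differed, in the direction of a lower share of Pdgfc after UUO.

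Within the ligands the ratio of Pdgfa to Pdgfb differed by -1 (adjusted exact p = 0.00136) and that of Pdgfb to Pdgfd by 1.13 (adjusted exact p = 0.00136), so that Pdgfb rose more than either. The difference in the ratio of Pdgfa to Pdgfd, at 0.13, did not pass (adjusted exact p = 0.305). That in the ratio of the receptors, Pdgfra to Pdgfrb, did not pass either (-0.27, adjusted exact p = 0.133). Without wild-type normal library 2, however, the difference for the receptors was -0.43 (adjusted exact p = 0.00286). The ratios of Pdgfb to Pdgfra and to Pdgfrb differed by 0.20 and -0.07 (adjusted exact p = 0.410 and 0.711), as means over the 2 labels. By label, the difference for Pdgfb to Pdgfrb was 0.24 in wild type and -0.39 with the SMOC2 label. For Pdgfb to Pdgfra it was 0.34 and 0.05.

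Genes around the receptors were then counted in 80 genes of the PDGF pathway, grouped by role. In wild type 43 of 80 rose and 16 fell, with a median log2 change of 0.38 beside 0.05 over all genes tested, of which 31.3% rose and 29.8% fell. In kidney with the SMOC2 label, 44 rose and 18 fell, with a median of 0.50 beside 0.04 over all genes, of which 32.5% rose and 30.4% fell. Scaling by the upper quartile raised the median of all genes to 0.157 in wild type and 0.152 with the SMOC2 label, and the split with the SMOC2 label was then 48 higher and 10 lower. Without the filter on low counts 11 were lower with that label. The shares of all genes given here stand beside the count of each role below.

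Of the 7 proteases that process PDGF chains, Plat alone rose and Furin, Pcsk6, Pcsk7 and Plau fell in either label. Furin, the proprotein convertase of the A and B chains, fell from 299 to 162 CPM in wild type (log2 -0.88, edgeR adjusted p = 1.39e-06) and from 386 to 221 CPM with the SMOC2 label (log2 -0.81, edgeR adjusted p = 2.94e-06). Pcsk6, a related convertase, fell from 66.4 to 10.3 CPM and from 63.8 to 7.46 CPM (log2 -2.68 and -3.09), and Pcsk7 from 60.9 to 45.5 CPM and from 59.7 to 40.9 CPM (log2 -0.42 and -0.54). Plat, which encodes tissue plasminogen activator, the activator of PDGF-CC, rose from 45.9 to 155 CPM in wild type (log2 1.76, edgeR adjusted p = 3.17e-06) and from 48.3 to 150 CPM with the SMOC2 label (log2 1.64, edgeR adjusted p = 5.46e-06). Plau, which encodes urokinase, an activator of PDGF-DD, fell from 1070 to 861 CPM in wild type (log2 -0.31, edgeR adjusted p = 0.0327) and from 1290 to 920 CPM with the SMOC2 label (log2 -0.49, edgeR adjusted p = 0.00202). The wild-type call of Plau was lost with upper-quartile scaling (edgeR adjusted p = 0.147), without the filter (0.0721), with the compared libraries alone (0.0905) and without normal library 2 (0.229) or UUO library 1, 2 or 3. The proximal tubule markers also fell, 12 of 12 in either label, and their part in the falls of these proteases and of Slc9a3r1 was not tested.

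Of the 14 genes for PDGF-binding and co-receptor proteins 9 rose and 2 fell in either label. Sparc, whose product binds PDGF-B, rose from 267 to 1280 CPM in wild type and from 196 to 1370 CPM with the SMOC2 label (log2 2.26 and 2.80), Thbs1 from 109 to 241 CPM and from 99.2 to 284 CPM (log2 1.15 and 1.52) and the proteoglycan gene Dcn from 42.8 to 144 CPM and from 28.6 to 124 CPM (log2 1.75 and 2.12). Slc9a3r1, a scaffold that binds the tail of PDGFRβ, fell from 348 to 177 CPM and from 408 to 229 CPM (log2 -0.97 and -0.84), and its relative Slc9a3r2 fell by 0.51 and 0.34 on the log2 scale. The Slc9a3r2 call with the SMOC2 label was lost with upper-quartile scaling (edgeR adjusted p = 0.115) and without normal library 3 (0.142) or UUO library 4 (0.0570). Cspg4, the pericyte proteoglycan NG2 that binds PDGF-AA, rose from 37.3 to 49.0 CPM and from 42.7 to 66.1 CPM (log2 0.40 and 0.63). Dcn and Cspg4 also stand among the fibroblast and pericyte markers counted below.

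The 30 adaptors and effectors moved in both directions, with 12 higher and 8 lower in wild type and 13 and 9 with the SMOC2 label, near the shares of all genes tested (31.3% higher and 29.8% lower, and 32.5% and 30.4%). Stat3, a transcription factor downstream of many cytokine and growth factor receptors, rose from 95 to 233 CPM in wild type and from 84.8 to 213 CPM with the SMOC2 label (log2 1.29 and 1.33). The adaptor genes Shc1 (log2 0.78 and 0.91), Nck1 (0.70 and 0.61) and Nck2 (0.51 and 0.70) rose in wild type and with the SMOC2 label. Among 9 receptor phosphatases and ubiquitin ligases 7 rose and 1, Acp1, fell in wild type, while 8 rose and 0 fell with the SMOC2 label. Ptpn1, which dephosphorylates the receptors, rose from 49.4 to 87.1 CPM and from 54.8 to 87.6 CPM (log2 0.82 and 0.68). Cblb, a ubiquitin ligase, rose by log2 0.72 and 0.86. Socs3, a cytokine-induced inhibitor, rose from 3.02 to 91.7 CPM in wild type and from 2.66 to 77.2 CPM with the SMOC2 label (log2 4.92 and 4.88, edgeR adjusted p = 9.44e-09 and 9.83e-09). The Acp1 fall (log2 -0.34, edgeR adjusted p = 0.0318) was lost with upper-quartile scaling (0.136), without the filter (0.0831), with the compared libraries alone (0.0546) and without wild-type normal library 1 or 2 or UUO library 3 or 4.

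Of the 8 feedback inhibitors of the Ras pathway Spry1, Spred1 and Dusp5 rose in either label. That is near the share of all genes that rose, 31.3% in wild type and 32.5% with the SMOC2 label. In wild type 1 of 8 fell and with the SMOC2 label 2 of 8, where 29.8% and 30.4% of all genes fell. The median log2 change of the 8 was 0.06 and 0.22, beside 0.05 and 0.04 over all genes. Dusp5, an ERK phosphatase, rose from 1.33 to 6.12 CPM in wild type and from 1.70 to 7.40 CPM with the SMOC2 label (log2 2.17 and 2.12). Spry1 rose by log2 0.56 and 0.86, but its wild-type call was lost without normal library 1 (edgeR adjusted p = 0.122), normal library 2 (0.0603) or UUO library 3 (0.0732). Spred1 rose by log2 0.43 and 0.44. Spred2 fell in wild type (log2 -0.37, edgeR adjusted p = 0.00547) and, with the SMOC2 label, fell with Dusp6 at the edge of the threshold (edgeR adjusted p = 0.0418 and 0.0485). Those 2 calls were lost with upper-quartile scaling (edgeR adjusted p = 0.248 and 0.185), with DESeq2 (0.0564 and 0.0618) and without SMOC2-label normal library 1 (edgeR adjusted p = 0.168 and 0.257), among others.

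Of the 12 early response genes, which growth factors and many other stimuli induce, 11 rose and 0 fell in wild type, and 10 rose and 1 fell with the SMOC2 label. Egr1 rose from 5.89 to 69.2 CPM in wild type and from 7.18 to 60.5 CPM with the SMOC2 label (log2 3.56 and 3.07), Myc from 8.22 to 61.3 CPM and from 8.66 to 58.7 CPM (log2 2.90 and 2.75) and Junb from 20.2 to 123 CPM and from 23.6 to 135 CPM (log2 2.60 and 2.52). The gene that fell was Srf, which encodes serum response factor (log2 -0.23, edgeR adjusted p = 0.0348), and that call was lost with upper-quartile scaling (0.300), without the filter (0.109), with the compared libraries alone (0.0537) and without SMOC2-label normal library 3 (0.137), normal library 4 (0.0624) or UUO library 4 (0.0957). Between the labels 0 of the 80 genes passed in normal kidney and 0 passed by interaction. An unadjusted edgeR p under 0.05 was found for 10 and 3 of them, beside 2299 and 1154 of all 17926 genes tested. In UUO kidney it was found for 16 of the 80, beside 2716 of all genes. After UUO 2 of 80 passed, and both were higher with the SMOC2 label, where 0.558% of all genes were higher. They were Furin (162 and 221 CPM, log2 0.45, edgeR adjusted p = 0.0300) and Cspg4 (49.0 and 66.1 CPM, log2 0.43, edgeR adjusted p = 0.0483). Both calls were lost when the UUO libraries were fitted alone (edgeR adjusted p = 0.0816 and 0.0880). With each of the 8 UUO libraries left out in turn, the adjusted p ran from 0.0258 to 0.101 for Furin and from 0.0444 to 0.121 for Cspg4. The Furin call was lost in 6 of these 8 fits and the Cspg4 call in 7. The Cspg4 call was also lost with upper-quartile scaling (edgeR adjusted p = 0.0511), without the filter (0.0667) and with a block for the replicate number (0.0535).

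**Figure D4:**
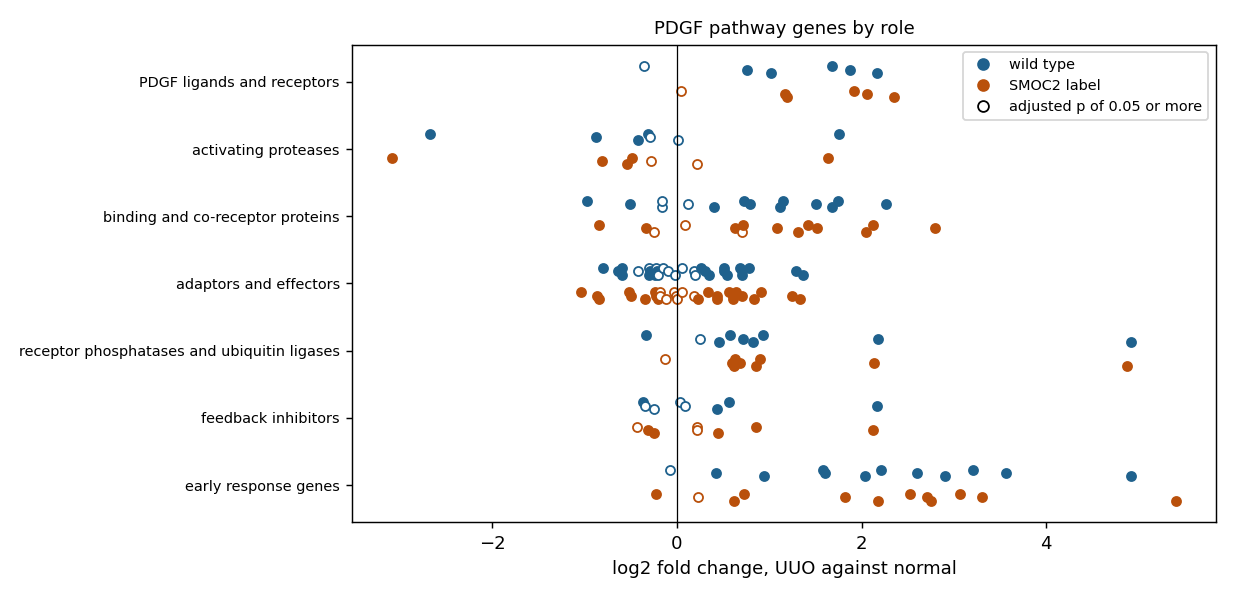
Log2 fold change of UUO against normal (x axis) for the 6 PDGF genes and 80 pathway genes by role (y axis), in wild type (blue) and with the SMOC2 label (orange), with open points at an edgeR adjusted p of 0.05 or more. Early response genes lie furthest to the right as a group, with 11 of 12 higher in wild type, and proteases lie mostly to the left, with 4 of 7 lower.

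Markers of the cells that carry the receptors were counted in the same way, against the same shares of all genes (31.3% higher and 29.8% lower in wild type, 32.5% and 30.4% with the SMOC2 label). Of 16 fibroblast and myofibroblast genes, none of them at 0 in a group, 13 rose and 1 (Nt5e) fell in wild type and 14 rose and 0 fell with the SMOC2 label. The Nt5e call was lost without wild-type normal library 2 (log2 -0.32 in place of -0.62, edgeR adjusted p = 0.177) and without UUO library 3 (0.0565). Col3a1 rose from 89.6 to 1360 CPM in wild type and from 46.5 to 1550 CPM with the SMOC2 label, Col1a2 from 82.0 to 858 CPM and from 54.5 to 1120 CPM, and Col1a1 from 36.2 to 804 CPM and from 27.6 to 1140 CPM. The 16 genes summed to 317, 592 and 678 CPM in wild-type normal libraries and to 4860, 2940, 4340 and 2780 CPM after UUO. The sums with the SMOC2 label came to 395, 465 and 278 CPM in normal and to 4740, 4920, 4590 and 3620 CPM in UUO libraries. Among normal libraries the sum was lowest where Pdgfrb was lowest (wild-type library 1 and SMOC2-label library 4) and highest where Pdgfrb was highest (wild-type library 3 and SMOC2-label library 3). The part of these cells in the rise of the receptors was not tested.

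Of 15 pericyte, mesangial and vascular smooth muscle genes, none at 0, 8 rose and 1 (Abcc9) fell in wild type and 7 rose and 1 (Art3) fell with the SMOC2 label. The Abcc9 call was lost without wild-type normal library 1 (edgeR adjusted p = 0.0509). Their sum was 389 to 441 CPM in wild-type normal and 877 to 1330 CPM in wild-type UUO libraries, and 447 to 531 CPM and 941 to 1200 CPM with the SMOC2 label. Much of that rise lay in Tagln (33.3 to 269 CPM in wild type, 36.1 to 299 CPM with the SMOC2 label) and Acta2 (34.8 to 252 CPM and 38.1 to 218 CPM). Kcnj8, Itga8, Gata3, Myh11 and Ren1 did not pass in either label. Markers of further cell types that can hold ligand RNA were counted too. Of 12 endothelial genes, none at 0, 0 rose and 6 fell in wild type and 2 rose and 5 fell with the SMOC2 label, with sums of 1000 to 1390 CPM in wild-type normal, 903 to 1040 CPM in wild-type UUO, 967 to 1310 CPM in SMOC2-label normal and 1030 to 1070 CPM in SMOC2-label UUO libraries. Of 12 proximal tubule genes 0 rose and 12 fell in either label, and of 9 loop of Henle and distal tubule genes 0 rose and 8 fell. Of 10 collecting duct genes 1 rose in either label, while 8 fell in wild type and 9 with the SMOC2 label. Of 11 injured tubule genes 11 and 10 rose and 0 fell, with sums of 2470 to 2760 CPM in wild-type normal and 25100 to 34100 CPM in wild-type UUO libraries, and 2330 to 2610 CPM and 18900 to 27100 CPM with the SMOC2 label. Most of these sums was Spp1, at means of 2000 and 23000 CPM in wild type and 1560 and 15000 CPM with the SMOC2 label. None of these tubule genes was at 0 in a group. Of 11 macrophage genes, none at 0, 11 and 10 rose, and their sum went from 222 to 254 CPM to 2000 to 2230 CPM in wild type and from 233 to 277 CPM to 1580 to 2440 CPM with the SMOC2 label. Platelet genes, 9 of which 5 were tested, summed to 11.7 to 16.1 CPM in the normal and 13.4 to 30.6 CPM in the UUO libraries, with 1 of them (Gp6) at 0 in SMOC2-label normal kidney. Pf4, Ppbp and Gp1bb rose in either label and Itga2b fell, while Gp1ba fell with the SMOC2 label, a call that was lost with upper-quartile scaling (edgeR adjusted p = 0.0532), without the filter (0.0556), with the compared libraries alone (0.0622) and without normal library 1 (0.103) or 3 (0.126) or UUO library 1 (0.0665) or 2 (0.0690). The most abundant of them, Itga2b, went from 11 to 6.74 CPM and from 13.2 to 6.54 CPM, whereas Pf4, a platelet chemokine gene, went from 0.439 to 9.68 CPM and from 0.440 to 8.60 CPM. The part of any of these cells in the levels of Pdgfa, Pdgfb and Pdgfd was not tested.

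**Figure D5:**
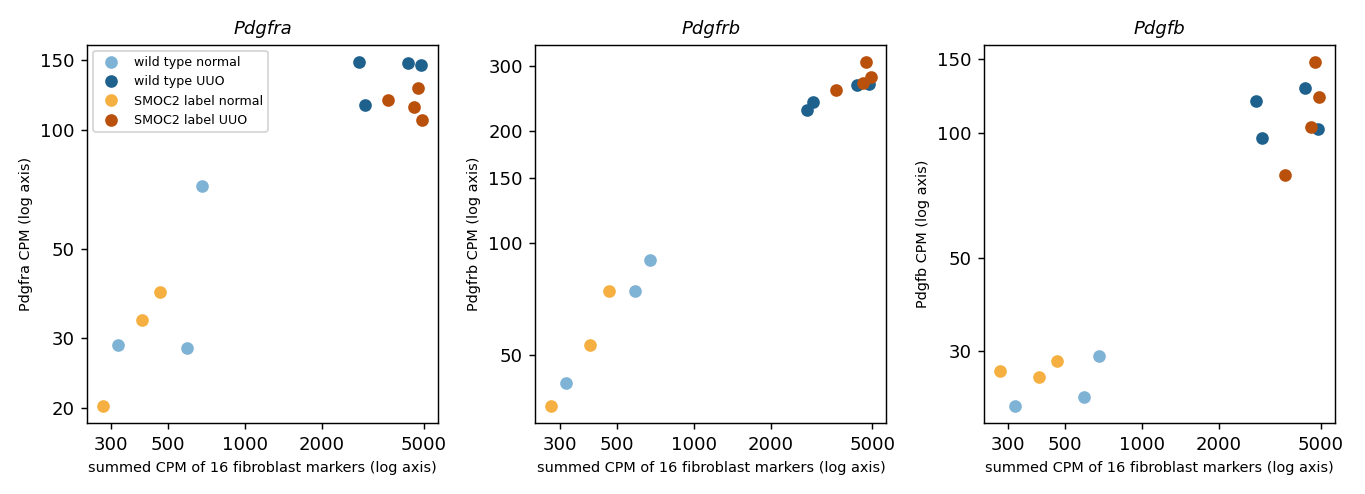
Pdgfra, Pdgfrb and Pdgfb (CPM, y axes, log scale) against the summed CPM of 16 fibroblast markers (x axes, log scale) in the 14 libraries, coloured by group. Normal libraries lie at sums of 278 to 678 CPM and UUO libraries at 2780 to 4920 CPM, and the 6 normal libraries rise together in the Pdgfrb panel from 36.4 to 90.2 CPM. They follow the sum less closely in the other panels. Wild-type normal libraries 1 and 2, at sums of 317 and 592 CPM, have Pdgfra at 28.7 and 28.3 CPM and Pdgfb at 22.1 and 23.2 CPM.

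The genes with profiles most like each member over the 14 libraries were sought among 10630 genes, by the root mean square difference of log2 CPM after each gene was centred on its own mean. For Pdgfrb they were Rcn3 (0.13 on the log2 scale), Emilin1 (0.14) and Bgn (0.15), of which Emilin1 and Bgn encode matrix proteins. For Pdgfra they were Filip1l (0.18), Ddr2 (0.21), a collagen receptor, and Nid1 (0.21), a basement membrane protein. For Pdgfb they were Rhob, Tpm1 and Sbno2 (0.16 each), and for Pdgfa Map7d1, Agrn and Rbfox2 (0.13 each). For Pdgfd they were Phf6 (0.12), Ptbp3 (0.15) and Tgfbr1 (0.16), a receptor of transforming growth factor beta. For Pdgfc they were Nhs (0.14), Greb1l (0.16) and Zfp612 (0.18), which is not close, since Pdgfc itself had an SD of 0.27 over the libraries. The 14 libraries share the contrast of UUO and normal kidney, which enters every such comparison.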

How the data were processed

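Messenger RNA of mouse kidney was made into 14 libraries with a stranded kit, per the labels' protocols. Reads were processed with STAR 2.4.1d and featureCounts 1.4.4 (Subread) on build mm10, per the submitters' processing notes. The strand setting is not given in the sources used here, nor is the annotation. The authors deposited raw counts per gene, as whole numbers without normalization, for 47729 Ensembl identifiers, of which 47310 matched GENCODE M21. The other 419 held 0.0288% of counts.

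Groups came from the labels. TMM factors scaled the counts, and filterByExpr chose the genes (17926 genes kept). In R 4.3.3, edgeR 4.0.16 fitted 1 mean per group to all 14 libraries (glmQLFit, glmQLFTest), with Benjamini-Hochberg adjustment over all genes tested, and "rose" or "fell" means an adjusted p under 0.05. Ratios had 0.5 added to each count. The members and gene lists were chosen with earlier results of these data known. Of each pathway role, named genes were those with the 3 smallest p in each label, those that passed between labels, and all of a count of 5 or fewer. No 2 libraries of a group agreed within sampling noise. The scripts were tested on simulated counts. Alternatives were other scaling, other filters, DESeq2 1.42.0, limma-voom (limma 3.58.1), a block for the replicate number, a fit of the compared libraries alone, another gene length, and each library left out.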

Additional observations from a re-analysis of the deposited data

Results flagged for a closer look

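In 58 groups of 4 UUO libraries, each for 1 of the genes described above, the highest or lowest library was set against the gap to its nearest neighbour (Dixon's ratio, at its 95% critical value), which chance flags in about 1 in 20 groups. Of the 58 groups 3 were flagged, which is near that rate of chance, and in all 3 the library was number 2 of wild-type UUO. This library had Pdgfra at 115 CPM, where the others were at 145 to 148 CPM. It had Furin at 183 CPM, where the group mean was 162 CPM, and Dcn at 122 CPM, where the group mean was 144 CPM.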

How the results depend on the processing

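The count of members called, 5 of 6 after UUO in either label and 0 between labels or by interaction, stayed within 1.5 times of the reported value under all alternatives run, and the 5 members that rose kept their direction and call in each. Pdgfc in wild type passed with the replicate block (-0.42, adjusted p = 0.0429) and without wild-type normal library 2. Of the 80 pathway genes, the number lower with the SMOC2 label went from 18 to 10 with upper-quartile factors and to 11 with no filter. With the longest transcript as length, 14 of 24 places in the order of levels were the same.

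Some differences that had not passed changed sign. Pdgfa between labels in normal kidney was 0.002 with median-ratio size factors, 0.003 with limma-voom and 0.011 with the replicate block, and Pdgfb between labels after UUO was -0.012 with limma-voom. In wild-type UUO, Srf was 0.035 with upper-quartile factors and Dusp6 was -0.001 with the replicate block. With libraries left out in turn, the ranges were -0.047 to 0.037 for Pdgfa, -0.23 to 0.101 for Pdgfc and -0.713 to 0.108 for Pdgfra between labels in normal kidney, -0.135 to 0.157 for Pdgfb between labels after UUO, -0.264 to 0.029 for Pdgfb and -0.359 to 0.462 for Pdgfra in the interaction, and -0.113 to 0.199 for Pdgfc with the SMOC2 label after UUO. The difference in the ratio of Pdgfb to Pdgfrb ran from -0.185 to 0.054, and that of Dusp6 in wild-type UUO from -0.068 to 0.099. As reported, Pdgfra was at -0.49 between labels in normal kidney and at 0.24 in the interaction. Both values changed sign only without wild-type normal library 3 (0.108 and -0.359). The cause of these changes was not tested.

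Same-numbered libraries shared a number only. Their deviations correlated at -0.09 to 0.10, and the block changed the genes called over the table from 10950 to 10749 in wild-type UUO, from 11264 to 11043 with the SMOC2 label and from 149 to 69 between labels after UUO. Between labels after UUO DESeq2 called 757 genes and limma-voom 232, and in normal kidney 174 and 9, beside 149 and 5 in edgeR. The members had 187 to 9885 counts per library, and the shares of counting error and of replicate spread in the intervals were not separated.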

Other observations

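In the UUO libraries with the SMOC2 label, library 1 had the highest and library 4 the lowest CPM of Pdgfa (57.3 and 39.7), Pdgfb (148 and 79.3), Pdgfd (35.4 and 22.6) and Pdgfrb (308 and 258). Pdgfc was highest in library 4 (24.6 CPM) and Pdgfra was lowest in library 2 (106 CPM). In the wild-type UUO libraries Pdgfb and Pdgfa were highest in library 3 (128 and 52.6 CPM), Pdgfd and Pdgfrb in library 1 (35.7 and 269 CPM).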
